A study of Mus musculus with 20 samples.

Results

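Distal open H3K27ac regions that hematopoietic stem cells (HSC) kept with and without mTOR are described here. They number 904 of the 20036 H3K27ac peaks of the mTOR-deleted library on chromosomes 1 to 19 and X. They were chosen by peak calls in 6 libraries, so the calls named in the rule are a description and not a finding. A region is an H3K27ac peak of the mTOR-deleted library that shares at least 1 bp with an H3K27ac peak of the control library, touches no H3K4me3 peak of either genotype, lies more than 1 kb from both annotated ends of every protein-coding gene, and shares at least 1 bp with an ATAC peak of the second control and of the second mTOR-deleted ATAC library. Of the 20036 peaks, 4891 overlapped a control H3K27ac peak, 1277 of these had no H3K4me3, 1199 of these lay beyond 1 kb from gene ends, and 904 of these were open in both ATAC libraries. Of the 295 lost at the last step, 250 were open in neither library, 26 only in the control and 19 only in the mTOR-deleted library. Put in place of the second control ATAC library, the first left 496 regions; put in place of the second mTOR-deleted one, the first left 504.

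The cells were HSC sorted from adult mice given poly(I:C), an interferon inducer that switches on the Mx1-Cre transgene in blood-forming cells and in other cells that respond to interferon. Control mice were Mx1-Cre-/-;mTORflox/flox (WT below), so they carried the floxed alleles and had poly(I:C) but no Cre. Mice without mTOR were Mx1-Cre+/-;mTORflox/flox (KO), and a further group of these carried 1 floxed allele of c-Myc in addition (KO MycHet). H3K27ac, H3K4me3 and MYC were each mapped by ChIP-seq in a single library per genotype, WT and KO. Open chromatin was mapped by ATAC-seq, which uses a transposase, in 2 libraries of 50000 cells for WT, for KO and for KO MycHet. MYC was not mapped in KO MycHet cells. With 1 ChIP library a genotype, no difference between genotypes has a replicate check, and none was tested.

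Enhancers are stretches of DNA away from gene starts that bind transcription factors and raise the transcription of genes that can lie far away. Active enhancers are open, carry acetylated histone H3 (H3K27ac) and usually lack the H3K4me3 that marks active starts. MYC, a transcription factor that binds DNA with its partner MAX at E-boxes such as CACGTG, is found mostly at active starts and also at active enhancers, and mTOR, a kinase that senses nutrients and growth factors, acts on protein synthesis and cell growth.

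Each list gave the peaks of 1 library with the authors' score per peak, whose scale is not stated and which was never below 50. Scores are used to rank peaks within a list. Where scores of several libraries stand side by side, each is on its own scale, and their sizes cannot be compared between libraries. The H3K27ac list was far longer and its peaks wider in KO (20036 peaks, median 1237 bp) than in WT (10078 peaks, median 333 bp), and the MYC list was longer in KO (22086 peaks) than in WT (8774). The 6 ATAC lists held between 17303 peaks (WT 1) and 72149 (KO 2). The lists give no read counts, so depth is unknown. As a check of the sorted cells, 39 of 44 genes for HSC surface markers and cytokine receptors had a WT H3K4me3 peak within 1 kb of an end, Slamf1, Procr and Cd34 among them, and 38 had one in KO. Kit had such a peak in WT and not in KO. Of 22 B cell genes 5 had one in each genotype, and Cd3e of T cells, Gata1 and Elane had none in either.

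Most of the regions held no annotated start. Of the 887 regions on the chromosomes for which RefSeq start windows were used (1 to 17, 19 and X), 38 overlapped a window from 250 bases before to 50 after a start (4.28%, 95% CI 3.05 to 5.83), against 33.0% of KO H3K27ac peaks there. The rule kept regions away from the ends of protein-coding genes, so this share is in part set by it. In 35 of the 38 the start belonged to a long noncoding RNA, and in 3 it was an internal start of a protein-coding gene, Zeb2, Cd33 or Vrk1. These windows are the places within the regions for which sequence was read.

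The 250 bases before 6 of these starts are shown because ATAC peaks of both KO MycHet libraries overlap them and because they differ in MYC: 4 overlap a MYC peak in both genotypes, 1 in KO only and 1 in neither. They were chosen after their values were seen. Sequences are from RefSeq on GRCm38.p6 (mm10), 5′ to 3′ on the strand of the transcript. Capitals mark matches on either strand to the GATA core (GATAA), to the ETS motif of blood cells (CAGGAAGT) or of housekeeping starts (CCGGAAGT), to the RUNX core (TGTGGT), to the MYC E-box (CACGTG) or to the AP-1 motif (TGANTCA).
Gm42376, chr7:30394809-30395058, minus strand, nearest coding gene Tyrobp: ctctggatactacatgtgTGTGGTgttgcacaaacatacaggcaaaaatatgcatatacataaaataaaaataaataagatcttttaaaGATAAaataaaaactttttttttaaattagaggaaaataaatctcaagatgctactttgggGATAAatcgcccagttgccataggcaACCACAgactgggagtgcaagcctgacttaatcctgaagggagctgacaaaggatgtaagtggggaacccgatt
4930573C15Rik, chr5:146703587-146703836, plus strand, nearest coding gene Usp12: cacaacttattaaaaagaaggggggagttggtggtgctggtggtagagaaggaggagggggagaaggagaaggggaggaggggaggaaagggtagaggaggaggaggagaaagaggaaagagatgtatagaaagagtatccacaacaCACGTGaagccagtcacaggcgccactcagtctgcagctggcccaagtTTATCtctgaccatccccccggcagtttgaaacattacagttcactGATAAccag
Gm40441, chr12:72844429-72844678, minus strand, nearest coding gene 4930447C04Rik: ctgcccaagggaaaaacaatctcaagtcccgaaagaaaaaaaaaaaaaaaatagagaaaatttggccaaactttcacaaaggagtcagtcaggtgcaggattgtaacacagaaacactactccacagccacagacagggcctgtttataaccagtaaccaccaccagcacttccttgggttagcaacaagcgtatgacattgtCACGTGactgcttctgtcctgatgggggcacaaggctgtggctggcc
Gm40491, chr12:86833764-86834013, minus strand, nearest coding gene Irf2bpl: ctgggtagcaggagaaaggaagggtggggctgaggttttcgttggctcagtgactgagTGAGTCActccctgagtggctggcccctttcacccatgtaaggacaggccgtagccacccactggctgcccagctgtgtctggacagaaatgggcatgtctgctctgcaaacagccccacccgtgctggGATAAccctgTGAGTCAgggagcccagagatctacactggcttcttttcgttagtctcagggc
Cd33, chr7:43533172-43533421, minus strand, inside Cd33: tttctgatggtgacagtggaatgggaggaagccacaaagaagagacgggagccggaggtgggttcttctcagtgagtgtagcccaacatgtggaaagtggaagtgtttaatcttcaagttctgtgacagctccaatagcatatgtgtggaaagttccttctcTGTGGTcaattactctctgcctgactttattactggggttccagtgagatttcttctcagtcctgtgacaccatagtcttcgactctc
Zeb2, chr2:45110278-45110527, minus strand, inside Zeb2: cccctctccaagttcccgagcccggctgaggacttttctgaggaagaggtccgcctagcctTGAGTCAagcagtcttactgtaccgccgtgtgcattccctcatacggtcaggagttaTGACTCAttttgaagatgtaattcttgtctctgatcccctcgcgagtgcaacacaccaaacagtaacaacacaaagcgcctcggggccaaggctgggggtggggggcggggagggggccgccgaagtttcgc

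The stretch before Gm42376 holds GATAA 2 times and TGTGGT 2 times, and its MYC peaks scored 159.5 in WT and 209 in KO. Those before 4930573C15Rik and Gm40441 each hold CACGTG 1 time. The MYC peaks there scored 107 and 120.1 at 4930573C15Rik and 123 and 89.2 at Gm40441, in WT and KO respectively. At Gm40491 the MYC peaks scored 220.3 in WT and 213 in KO, and the stretch holds TGANTCA, the AP-1 motif, 2 times and no CACGTG. The Cd33 stretch, with 1 TGTGGT, had a MYC peak in KO only, at 60.8, and the Zeb2 stretch, with 2 TGANTCA, had none over it in either genotype. Cd33 is a sialic-acid-binding receptor of myeloid cells, and Zeb2 is a zinc finger transcription repressor of blood stem and progenitor cells.

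Across the 47 start windows in the regions, GATAA, the core of the GATA motif, was present in 21 (44.7%), against 25.4% of all 32619 windows of the same length. TGTGGT, the RUNX core, was present in 14 (29.8%, against 16.6%) and CAGGAAGT, an ETS motif of blood cells, in 4 (8.51%, against 3.35%). CCGGAAGT, an ETS motif of housekeeping starts, was in 0 (against 3.91%). The E-box CACGTG was in 4 (8.51%, against 7.20%), the wider E-box CANNTG, which contains it, in 39 (82.98%, against 72.3%), and TGANTCA in 5 (10.6%, against 7.85%). Some of the 47 windows overlap each other, so the same match can be counted repeatedly. A match of letters is not a bound site. The 32619 windows include those of coding genes, whereas in 35 of the 38 regions the start belonged to a long noncoding RNA. No comparison with noncoding starts alone was made, so whether these shares are particular to the regions was not tested. Sequence of the other regions was not analysed here.

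The H3K27ac peaks at the regions were wide in KO and narrow in WT, as in the whole lists (medians of 1237 bp and 333 bp). The KO peaks had a median width of 2024.5 bp, and the 947 WT peaks inside or across them had a median of 466 bp. WT peaks covered a median of 26.5% of a region, and at least 50% of it in 106 regions. In all, 2089 kb carried H3K27ac in KO, of which 545 kb carried it in WT. A region is the KO peak by the rule, so the WT part could not be the larger. The whole lists covered 31.35 Mb in KO and 4.71 Mb in WT. A single WT peak lay in 861 regions, 2 in 42 and 3 in 1. Of the 947 WT peaks, 890 overlapped an ATAC peak of WT 2 (94.0%), a library in which the rule asks for a peak in every region.

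**Figure D1:**
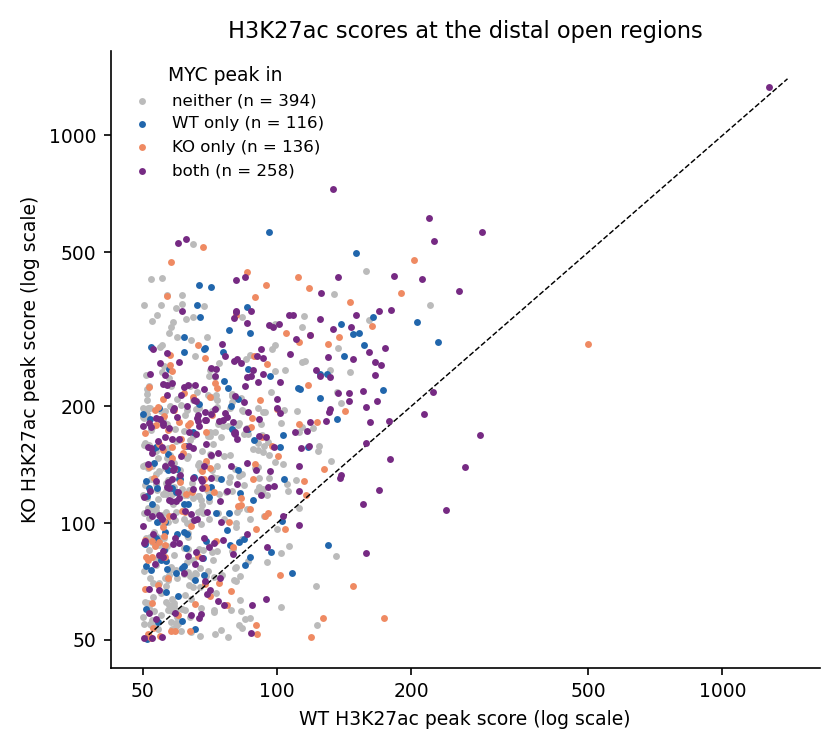
H3K27ac peak score of each of the 904 regions in WT (horizontal, log scale) and KO (vertical, log scale), coloured by the genotypes with a MYC peak; the dashed line marks equal scores and each library keeps its own scale. The median score was 67.7 in WT and 139.9 in KO, in lists with a lower limit of 50. The point at the upper right is the region near the start of chromosome 9.

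KO scores ranged from 50.1 to 1335, with a median of 139.9 against 104.5 for the whole KO list, and WT scores from 50.01 to 1270.4, with a median of 67.7 against 66.2 for the whole WT list. The plot of the scores shows a loose relation between genotypes (Spearman's rho 0.32 across regions, which are not replicates). The highest score in both genotypes belonged to a single region at chr9:2999977-3005510, 329.7 kb from the nearest coding gene end, that of Alkbh8. It lies at the first assembled bases of the chromosome, beside the gap that stands for the centromere. Its MYC scores were 2136 in WT and 569 in KO and its ATAC scores 1212 in WT 1, 1478 in WT 2, 991 in KO 1, 1222 in KO 2 and 1444 in KO MycHet 2, with no peak in KO MycHet 1. It was the highest of the regions in WT MYC and in 3 of the 6 ATAC libraries (WT 1, KO 1 and KO MycHet 2), and whether it marks an enhancer was not tested.

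Among the others, the highest KO H3K27ac score was 727, at chr17:6005302-6009754 within Synj2 and nearest to an end of Serac1, with 134 in WT. Pip5k1c, which makes the membrane lipid PIP2, held a region inside the gene with 611 in KO and 219.8 in WT. A region 80.6 kb from Klf6, a Krüppel-like transcription factor of stress and quiescence, had 564 in KO and 96.2 in WT. Regions at Cfap61 (564 in KO and 288 in WT), Ache (539 and 62.4), Glipr2 (533 and 225), Xdh (529 and 59.8), Hlcs (524 and 64.9) and Basp1 (516 and 68.1) completed the top of the KO list. The WT scores at Ache, Xdh and Hlcs were below the median WT score of all the regions (67.7), and that at Basp1 was just above it. The highest WT score after the chromosome 9 region was 499.6, inside Taok3, where the KO score was 289.6. Cfap61 (288 in WT), Ski (286 in WT and 169 in KO) and Camk1d (264 in WT and 139.6 in KO) followed.

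With all peaks of each list used, MYC was called at like shares of these regions in WT and KO, although the KO list of MYC peaks was far longer. A WT MYC peak overlapped 374 regions (41.4%, 95% CI 38.1 to 44.7), against 19.7% of all KO H3K27ac peaks. A KO MYC peak overlapped 394 (43.6%, 95% CI 40.3 to 46.9), against 34.2% of all KO H3K27ac peaks. MYC was called in both genotypes at 258 regions (28.5%), in WT only at 116 (12.8%), in KO only at 136 (15.0%) and in neither at 394 (43.6%). Over all KO H3K27ac peaks these shares were 13.9%, 5.81%, 20.3% and 60.0% in the same order. The 374 regions held 389 of the 8774 WT MYC peaks (4.43%), and the 394 held 412 of the 22086 KO peaks (1.87%). Intervals cover counting error over regions only, and the 1 library a genotype gives no error between samples.

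MYC was called less often at the other distal open sites than at these regions. At H3K4me3-marked open sites it was called at a like share in WT and at a higher share in KO. Distal open H3K27ac peaks of KO that no WT H3K27ac peak overlapped numbered 4363, and 14.5% of them had a WT MYC peak and 21.5% a KO one. Open H3K27ac peaks of both genotypes that carry H3K4me3, mostly promoters, numbered 3372, with 39.7% in WT and 62.7% in KO. Distal open sites with neither mark numbered 29367, with 2.79% and 6.32%. When the KO MYC list was limited to its 8774 highest scores, the length of the WT list, KO MYC was left at 21.8% of the distal open H3K27ac regions (95% CI 19.1 to 24.6), against 41.4% for WT. At the H3K4me3-marked peaks it was 39.4%, against 39.7% for WT. Whether WT or KO looks higher at the distal regions therefore depended on the length of the list, and depth, which can set that length, is unknown.

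**Figure D2:**
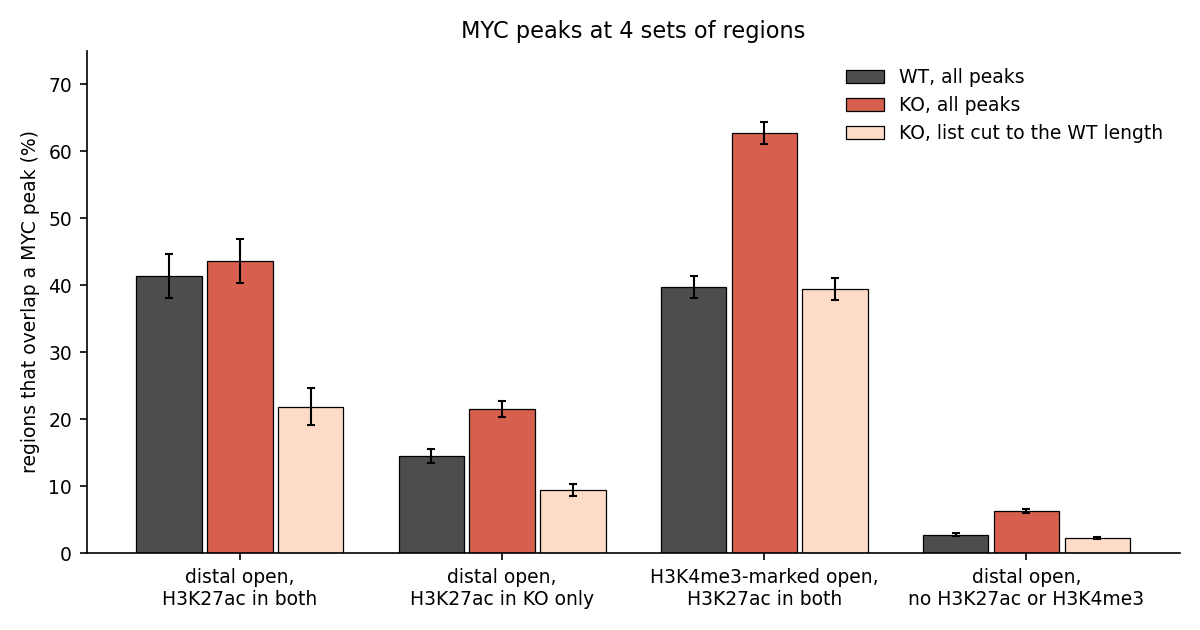
Share of regions that overlap a MYC peak (vertical, percent) in 4 sets of regions, for all WT peaks, all KO peaks and the 8774 highest-scoring KO peaks; bars start at 0 and error bars are exact 95% confidence intervals for counting error. At the distal open regions with H3K27ac in both genotypes WT (41.4%) and KO (43.6%) lie within each other's intervals, whereas at the H3K4me3-marked regions KO stands at 62.7% and WT at 39.7%.

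MYC was called more often where the ATAC score was higher. The regions were divided at ATAC WT 2 scores of 240.6, 405.7 and 585.6 into 4 classes of 226. From the lowest to the highest class, WT MYC was called at 17.7%, 28.8%, 45.6% and 73.5% of regions, and KO MYC at 23.5%, 30.5%, 48.7% and 71.7%. Within the highest class, the same score range held 410 distal open peaks with H3K27ac in KO only, of which 48.3% had WT MYC and 54.9% KO MYC. The 2359 H3K4me3-marked peaks in that range had WT MYC at 42.1% and KO MYC at 69.5%, and the 432 unmarked sites at 35.2% and 39.4%. In the highest class the interval for WT MYC at the distal regions (67.2 to 79.1%) lay above those of all 3 other sets. The interval for KO MYC there (65.3 to 77.5%) overlapped that of the H3K4me3-marked peaks (67.6 to 71.4%) and lay above those of the remaining sets. These intervals cover counting error over regions only, with no replicate MYC library, and no difference between sets was tested. Width moved with MYC as well: WT MYC was called at 32.7% of regions up to 1000 bp and at 52.2% of those over 3000 bp. Up to 1000 bp it was called at 10.8% of the KO-only H3K27ac peaks, 41.3% of the H3K4me3-marked peaks and 2.36% of the unmarked sites. Over 3000 bp it was called at 22.4% of the KO-only and 49.4% of the H3K4me3-marked peaks.

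**Figure D3:**
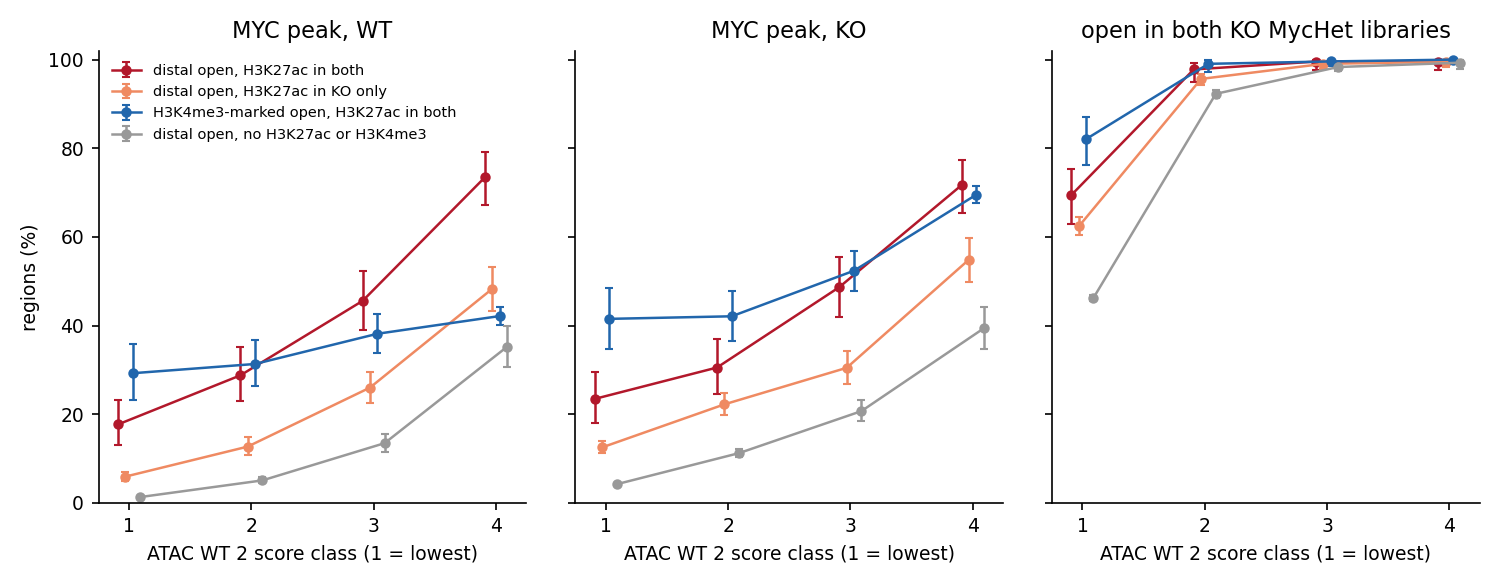
Share of regions (vertical, percent) with a WT MYC peak, with a KO MYC peak and with ATAC peaks in both KO MycHet libraries, by class of ATAC WT 2 score (horizontal; classes divided at 240.6, 405.7 and 585.6), for the 4 sets; error bars are exact 95% confidence intervals. At the distal regions with H3K27ac in both genotypes WT MYC goes from 17.7% to 73.5%, and openness in both KO MycHet libraries from 69.5% in the lowest class to 99.6% in the highest.

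The place of MYC within the regions was measured against the ATAC peaks of WT 2 and KO 2, which every region holds by the rule, so the values are a description. The midpoint of the highest MYC peak lay a median of 155.5 bp from that of the highest ATAC peak of WT 2 in WT, and 137 bp from that of KO 2 in KO. It overlapped an ATAC peak of that library in 365 of 374 regions in WT (97.6%) and 374 of 394 in KO (94.9%). In 342 of the 374 regions with WT MYC, a WT MYC peak overlapped a WT H3K27ac peak. Median MYC scores at the regions were 97.0 in WT, against 68.4 for the whole WT list, and 83.04 in KO, against 73.1 for the whole KO list. Regions with MYC in both genotypes had a median ATAC WT 2 score of 611, those with WT MYC only 428, those with KO MYC only 382 and those without MYC 296.

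By KO MYC score, the region inside C2cd5 (chr6:143056948-143057902) led those with MYC in both genotypes. It scored 415 for MYC in WT and 865 in KO, and for H3K27ac 169 in WT and 122 in KO. ATAC scored 141 in WT 1, 1241 in WT 2, 1279.8 in KO 2, 915 in KO MycHet 1 and 899 in KO MycHet 2, with no peak in KO 1. After the chromosome 9 region, Spag1 (270.3 in WT and 568 in KO), Plcg2 (337 and 453), Kdelr2 (215 and 424), Tiam1 (188 and 423), Actb (297.5 and 398) and St8sia1 (217 and 335) followed. Plcg2 encodes a phospholipase of antigen and cytokine receptor signalling, Tiam1 an activator of the GTPase Rac, and Actb the cytoskeletal β-actin. All 6 of these were open in both KO MycHet libraries.

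Lgalsl, which encodes a galectin-like protein, was nearest to the region with the highest MYC score among those called in KO only. The MYC score was 445, at chr11:20936428-20936988, with H3K27ac scores of 70.8 in WT and 64.9 in KO. It was open only in the libraries of the rule, WT 2 (105) and KO 2 (75.04), and in no other. Spsb4 (375 in KO), Dusp6 (281), Hpgds (213.5), Cdyl (194), Zfp217 (179), Heatr5a (179) and Snx5 (178) followed. Dusp6, a phosphatase that switches off ERK, lay 60.7 kb from its region. That region had H3K27ac scores of 54.0 in WT and 69.4 in KO and ATAC scores of 120.03 in WT 2, 145 in KO 2 and 61.2 in KO MycHet 1, with no peak in the other 3. The 3 strongest KO-only MYC peaks thus lay in regions open in 2 (Lgalsl), 3 (Dusp6) or 3 (Spsb4) of the 6 ATAC libraries. MYC was called in WT only with the highest scores at Plcb1 (208), Snx29 (205), Dph5 (187.5), Rab11fip4 (179) and Kcnj15 (178).

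Nearly all regions were open in KO cells with 1 floxed c-Myc allele. KO MycHet 1 had an ATAC peak at 847 regions (93.7%), against 74.5% of all KO H3K27ac peaks, and KO MycHet 2 at 860 (95.1%), against 75.3%. Both libraries were open at 828 regions (91.6%, 95% CI 89.6 to 93.3), against 72.0% of all KO H3K27ac peaks, and neither at 25 (2.77%), against 22.2%. A further 19 regions were open in KO MycHet 1 only and 32 in KO MycHet 2 only. Both were open at 79.4% of the distal open H3K27ac peaks of KO only, 98.7% of the H3K4me3-marked peaks and 55.4% of the unmarked sites. The rule asked for peaks in WT 2 and KO 2, so part of these shares goes with open sites of any genotype.

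The first WT and KO libraries, also outside the rule, were open at fewer regions. WT 1 had a peak at 494 (54.6%), against 49.3% of all KO H3K27ac peaks, and KO 1 at 503 (55.6%), against 50.3%. Their lists were the shortest, with 17303 peaks in WT 1 and 19174 in KO 1, against 47214 and 53722 in KO MycHet 1 and 2. With every ATAC list limited to its 17303 highest scores, the share was 54.6% in WT 1, 51.1% in KO 1, 57.3% in KO MycHet 1 and 57.9% in KO MycHet 2, and 52.4% in both KO MycHet libraries. At equal length the 4 libraries outside the rule thus ranged from 51.1 to 57.9%, and the gap between the first WT and KO libraries and KO MycHet narrowed with list length.

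**Figure D4:**
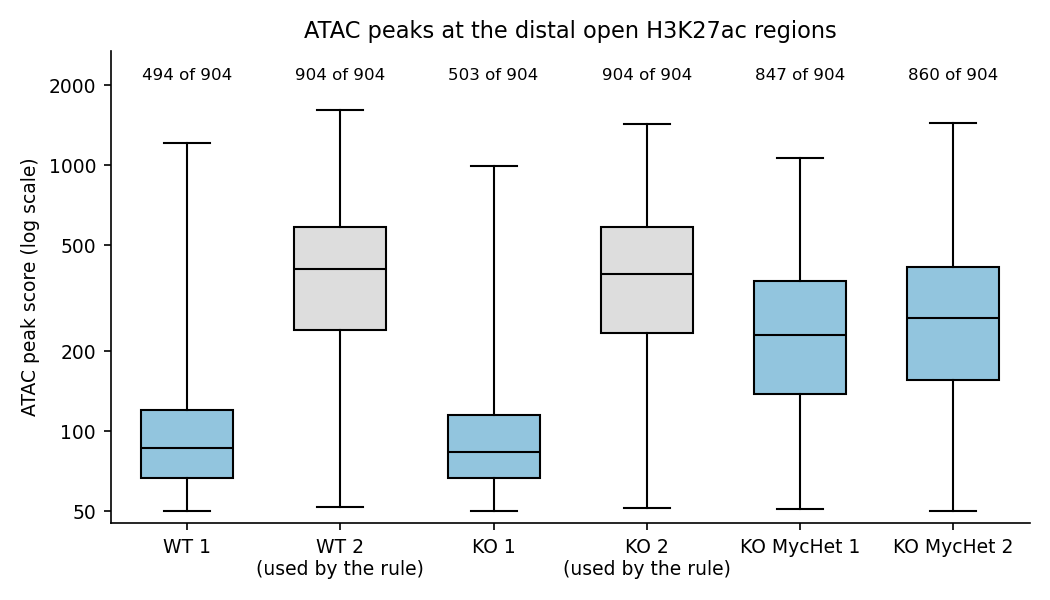
Authors' ATAC peak scores (vertical, log scale) at the 904 regions in each of the 6 libraries; boxes show quartiles and median, whiskers reach the lowest and highest score, grey boxes are the libraries used by the rule, and the number of regions with a peak stands above each. Median scores were 86.1 in WT 1, 406 in WT 2, 83.4 in KO 1, 391 in KO 2, 230.7 in KO MycHet 1 and 267 in KO MycHet 2, each on its own library's scale.

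All 6 libraries were open at 372 regions (41.2%), near the 42.4% of all KO H3K27ac peaks. A set of 216 regions was open in both KO MycHet libraries and in neither WT 1 nor KO 1, and 0 regions were open in WT 1 and KO 1 and in neither KO MycHet library. The lists of WT 1 and KO 1 are the shorter ones, so the direction goes with list length. These counts were not repeated at equal length and stand without a share over all KO H3K27ac peaks. By KO H3K27ac score, and leaving out predicted genes, the 216 were led by the regions of Serac1, Pip5k1c, Cit, Selenon, H4bc24 and Hipk2. At the Cit region, inside the gene for citron kinase, ATAC scored 308 in WT 2, 416 in KO 2, 67.2 in KO MycHet 1 and 117 in KO MycHet 2. The highest KO MycHet 1 scores belonged to Ppa2 (1061), Reep3 (1058), Ctif (943), C2cd5 (915) and Actb (869), and all 5 regions had MYC in both genotypes. MYC in both genotypes went with openness in both KO MycHet libraries at 98.1% of regions, MYC in WT only at 94.0%, in KO only at 93.4% and in neither at 86.0%. Median ATAC WT 2 scores of these groups also differed, at 611, 428, 382 and 296 in the same order. Above the lowest class of ATAC WT 2 score, 97.8 to 99.6% of regions were open in both KO MycHet libraries. Openness by MYC at like ATAC scores was not tested.

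The 25 regions open in neither KO MycHet library were all in the lowest class of ATAC WT 2 score. Their median ATAC scores were 107 in WT 2 (51.9 to 202) and 91.7 in KO 2 (51.1 to 359). None was open in WT 1 and 2 were open in KO 1. A MYC peak was absent from 19 of them in both genotypes, beside 43.6% of all regions and 60.0% of all KO H3K27ac peaks. Over the whole lowest class, WT MYC was called at 17.7% of regions and KO MYC at 23.5%, so MYC was sparse there in general. Regions nearest to Etv5, an ETS transcription factor, Il1rn, the interleukin-1 receptor antagonist, Ern1, a sensor of unfolded protein, and Wrn, a helicase, were among the 25 (chosen after their values were seen). In the lowest class, both KO MycHet libraries were open at 69.5% of the regions, at 62.4% of the KO-only H3K27ac peaks and at 46.2% of the unmarked sites, so openness there was lower in all of these sets.

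The regions lay within and between genes in like numbers. The midpoint was inside a protein-coding gene for 502 regions (55.5%, 95% CI 52.2 to 58.8) and between genes for 402, against 55.2% inside for the distal open H3K27ac peaks of KO only. The nearest coding gene end was a median of 19.2 kb away, with 131 regions at 1 to 5 kb and 103 beyond 100 kb. Just inside the limit of 1 kb were regions at Pstpip1 (1018 bp, KO H3K27ac score 245), Cd52 (1033 bp, 195) and Snx11 (1055 bp, 167). Just outside it were peaks at Psrc1 (915 bp, 79.95), Adgrg1 (931 bp, 79.2) and Kcnip2 (970 bp, 204). Most regions stood alone: 41 of the 904 lay close to another, within the span commonly used to stitch enhancers together, in 19 groups. The longest group held 4 regions, at chr14:76663885-76697136, between 106.8 and 136.0 kb from Serp2. All 4 had a WT MYC peak (139 to 329), and 3 had one in KO (56.4 to 219.8).

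Below, a gene is given a region when its annotated end is the nearest coding gene end, which names a neighbour and not a target. The 904 regions fell to 809 genes, 3.74% of the 21631 protein-coding genes and 15.8% of the 5128 genes nearest to any KO H3K27ac peak that is distal and lacks H3K4me3. A single region fell to 727 genes, 2 to 72 genes and 3 to 8 genes, with 4 for Serp2 and 5 for Cxcr4. The gene lists below were chosen with earlier results of these data known, and each count is read against the 2 shares just given.

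Cxcr4, the receptor for the chemokine Cxcl12 that holds HSC in the bone marrow, had more regions than any other gene. The regions lay from 16.0 to 119.5 kb from its nearest end, 3 on the side of lower coordinates and 2 on the other. KO H3K27ac scores were 128, 132, 181, 222 and 200.2 along the chromosome, and WT scores 67.8, 71.7, 63.7, 112 and 57.4. All 5 were open in both KO MycHet libraries, with KO MycHet 1 scores of 208, 104, 174, 559 and 396 and KO MycHet 2 scores of 113, 208, 184, 643 and 484. MYC differed along the locus. The region farthest out on the lower side, chr1:128507114-128508052, had MYC scores of 64.0 in WT and 232 in KO, the one nearest to the gene had MYC in KO only (74.1), and chr1:128704261-128706644 in WT only (89.4). The other 2 had none.

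Genes for HSC surface markers and cytokine receptors had regions at 9 of 44 (20.5%), which is 9 of the 27 nearest to any distal KO H3K27ac peak (33.3%). They were Cxcr4, Tgfbr2, Flt3, Itga6, Ifnar1, Ifnar2, Cd47, Eng and Ptprc, with 16 regions, of which 7 had MYC in WT, 7 in KO and 15 were open in both KO MycHet libraries, also near the shares over all regions. Tgfbr2, the receptor for the quiescence signal TGF-β, had 2 regions, with KO H3K27ac scores of 365 and 106 and WT scores of 66.1 and 95.5. Flt3, the receptor that marks multipotent progenitors, had 2 regions inside the gene with no MYC peak in either genotype. Ifnar1 and Ifnar2, the subunits of the type I interferon receptor, had 1 region each with MYC in both genotypes, at 127 in WT and 187 in KO for Ifnar1 and 149 and 81.1 for Ifnar2. The control and KO mice alike had been given poly(I:C). The 1 region not open in either KO MycHet library lay 4.9 kb from Itga6, an integrin of HSC, and was near the lower limit in WT 2 (51.9) and KO 2 (55.5). Of the 44 genes, 20 were nearest to at least 1 of the 4363 distal open H3K27ac peaks of KO only.

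HSC transcription factor genes had regions at 8 of 45 (17.8%), which is 8 of the 29 nearest to any distal KO H3K27ac peak (27.6%): Mef2c, Zeb2, Tcf4, Prdm16, Ikzf1, Runx2, Lmo2 and Zfp36l2. Zfp36l2 is an RNA-binding protein that speeds mRNA decay, and the others bind DNA or, for Lmo2, bridge factors that do. All 10 of their regions were open in both KO MycHet libraries, and 4 had MYC in WT and 4 in KO, near the shares over all regions (91.6%, 41.4% and 43.6%). Ikzf1, which encodes the lymphoid regulator Ikaros, had a region 26.7 kb away with MYC at 123 in WT and 103 in KO. ATAC at that region scored 178 in WT 1, 713 in WT 2, 122 in KO 1, 825 in KO 2, 666 in KO MycHet 1 and 699 in KO MycHet 2. Prdm16, needed for HSC maintenance, held a region inside the gene with MYC at 96.8 in WT and 54.9 in KO. Lmo2 had one 8.3 kb away with MYC at 125 and 60.5. Zeb2 had 2, of which the one inside the gene, over the start shown above, had MYC in KO only (86.6). The count fell to 1 with H3K27ac scores of at least 100 in both genotypes, and was 4 (Mef2c, Prdm16, Tcf4 and Zeb2) with the nearest start in place of the nearest end. Distal open H3K27ac peaks of KO only, which number 4363, were nearest to 22 of the 45 genes, so such neighbours are not particular to the regions.

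**Figure D5:**
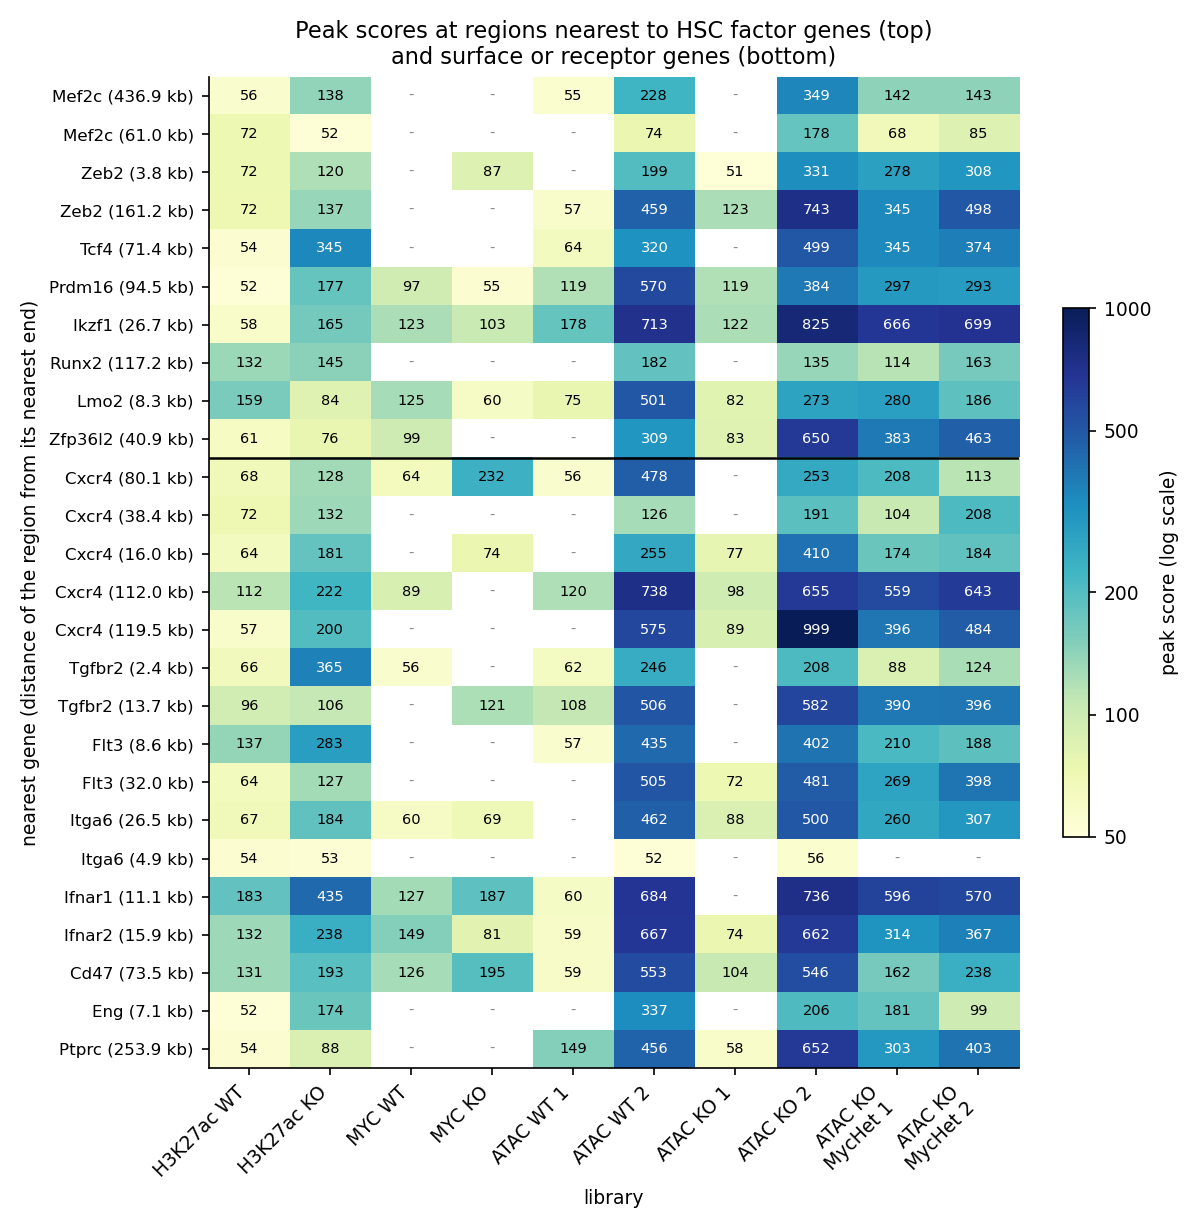
Authors' peak scores in each of the 10 H3K27ac, MYC and ATAC libraries (columns) at the regions nearest to genes on the HSC transcription factor list (rows above the line) and the surface marker and receptor list (rows below), with the distance to the gene end in brackets; a dash means no peak, and colour runs on a log scale. Every row except the second Itga6 region has a peak in both KO MycHet libraries, and MYC is called in each genotype at 4 of the 10 upper and 7 of the 16 lower rows.

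Genes of quiescence had regions at 5 of 32 (15.6%), namely Klf6, Btg1, Klf2, Rgs2 and Rgs1, with 6 regions. MYC was called in WT at 5 of these regions and in KO at 2, Btg1 (58.1 in WT and 53.5 in KO) and Rgs1 (141 and 61.4). Klf2, a Krüppel-like factor of resting lymphocytes, had WT MYC at 82.4, Rgs2 at 59.9 and the nearer Klf6 region at 104.6. BCL2 family genes had regions at 3 of 18 (16.7%), and all 4 regions had MYC in WT and 2 in KO. Bcl2l11, which encodes the death promoter BIM, had 2 (WT MYC 64.7 and 61.8), and Pmaip1, which encodes NOXA, and the survival gene Mcl1 had 1 each (53.9 and 98.4). These shares exceed 3.74%. Among genes nearest to a distal KO H3K27ac peak they were 26.3% for quiescence and 42.9% for the BCL2 family, against 15.8%, over 19 and 7 genes. The MYC counts, over 6 and 4 regions, stand beside 41.4% of all regions in WT and 43.6% in KO. The MNK, ERK and eIF4E list went the other way, with MYC in WT at 2 and in KO at 4 of 7 regions. No such difference was tested.

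Signalling genes had regions at 7 of 37 on the MNK, ERK and eIF4E list and 7 of 38 on the PI3K, JAK and STAT list. Among the former, MYC was called in both genotypes at Dusp2 and in KO only at Spred2 and Dusp6. Dusp2, an ERK phosphatase, had MYC scores of 296 in WT and 228 in KO, at chr2:127327498-127329832. Its region also had ATAC scores of 123 in WT 1, 1078 in WT 2, 142 in KO 1, 1018 in KO 2, 463 in KO MycHet 1 and 591 in KO MycHet 2. On the other list, Gab2, Pik3r1 and Inpp5d had 2 regions each and Stat3, Stat5b, Cish and Irs2 had 1. Pik3r1, the regulatory subunit of PI3K, had MYC in both genotypes at both regions, at 104.1 and 99.5 in WT and 58.1 and 72.7 in KO.

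Genes of growth and of other lineages had fewer regions in number than the HSC lists, and their shares depended on the genes they were set against. Of 42 mTOR pathway genes, 2 had a region: Ddit4, an inhibitor of mTOR complex 1 (KO H3K27ac score 448, WT 158, no MYC), and Rptor, the scaffold of that complex (314 and 78.0, MYC in WT only at 149). That is 4.76% of the list, and 18.2% of its 11 genes nearest to any distal KO H3K27ac peak. Ribosome biogenesis had 1 of 44, cytosolic ribosomal proteins 2 of 78 and the respiratory chain 2 of 48, shares of 2.27%, 2.56% and 4.17% beside 3.74% of all coding genes. Among genes nearest to any distal KO H3K27ac peak the shares were 20% of 5, 20% of 10 and 25% of 8, beside 15.8%. No gene of the 22 for B cells, 30 for T and NK cells or 12 for mast cells and basophils had a region, although 2, 10 and 4 of them were nearest to some distal KO H3K27ac peak. Of the erythroid list 1 of 27 had one (Rhag), of the megakaryocyte list 2 of 20 (Rap1b and Selp), of the myeloid list 3 of 30 (Itgam, Ltf and Ccr2) and of the stromal and endothelial list 3 of 21 (Acta2, Pecam1 and Runx2, which is also on the HSC list). These are 3.70%, 10.0%, 10.0% and 14.3% of the lists, and 20% of 5, 25% of 8, 20% of 15 and 37.5% of 8 genes nearest to any distal KO H3K27ac peak. Beside 15.8%, the stromal and endothelial share was thus as high as those of the HSC lists, over few genes. The adhesion receptor gene Selp held the region with the highest score of these in each of the 6 ATAC libraries, with 223 in WT 1, 1223 in WT 2, 182 in KO 1, 1391 in KO 2, 814 in KO MycHet 1 and 802 in KO MycHet 2. The part of other cells in these calls was not tested.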

How the data were processed

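Peak lists of 12 ChIP-seq and ATAC-seq libraries were used, and the 8 RNA-seq samples were not analysed here. Each list was deposited by the authors per library, with a score per peak whose scale is not stated. Reads were processed with CASAVA and the build was mm10, per the submitters' processing notes; which aligner and peak caller made the lists is not stated in the labels. Read depth is unknown.

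Peaks on chromosomes 1 to 19 and X were compared by overlap of at least 1 bp, and gene ends were those of 21631 protein-coding genes in RefSeq (GRCm38.p6). Shares have exact Clopper-Pearson 95% intervals, which cover counting error only. The overlap code was tested on simulated data and matched bedtools 2.31.1 for all 11 lists compared. Python 3.11.15, pandas 2.3.3, numpy 2.4.6 and scipy 1.17.1 were used.

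Members and gene lists were chosen with earlier results of these data known. Of 708 listed genes, 705 matched by symbol and 1 by synonym. Named regions were those with the highest scores in each class, the genes with most regions, and genes of the lists; predicted genes were left out except where a start sequence is shown. A planned motif search around ATAC peaks was not run, since no genome was used here. The alternatives tried were score limits, lists of equal length, other overlap and distance limits, and WT 2, KO 2 or either KO MycHet library left out.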

Additional observations from a re-analysis of the deposited data

How the results depend on the processing

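Each result was a share or a count with no test. With H3K27ac scores of at least 100 in both genotypes, 135 regions were left, of which 63.7% had MYC in WT and 63.7% in KO, 96.3% were open in both KO MycHet libraries, 71.1% in WT 1 and 68.9% in KO 1, and the HSC transcription factor genes fell to 1. With as many KO MYC peaks as the WT list holds, KO MYC was at 21.8%. With ATAC lists of equal length, 52.4% were open in both KO MycHet libraries and 51.1% in KO 1. Leaving out WT 2, KO 2 or either KO MycHet library gave between 496 and 504 regions when a library of the rule was replaced, with MYC in KO at 55.2 to 55.6% and in WT at 52.6 to 53.0%, and openness in KO MycHet between 93.7 and 98.6%. In all, 20 planned values moved and 29 did not. Of 2 alternatives chosen after seeing the data, leaving out regions at a RefSeq start window moved none of 4 values, and by the nearest RefSeq start 4 HSC transcription factor genes had a region. The motif search around ATAC peaks was not run. No paired analysis was possible because no result comes from a test and the ChIP groups hold 1 library each.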

Other observations

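Several genes outside the lists had 3 regions each. Ctnnb1, which encodes β-catenin, the effector of Wnt signalling, had MYC in both genotypes at all 3, with scores of 212, 197 and 148 in WT and 129, 156 and 76.8 in KO, and all were open in both KO MycHet libraries. Ski, a repressor of TGF-β signalling, had MYC in both genotypes at 2 of its 3 regions. The one with the highest KO H3K27ac score (367, with 61.2 in WT) had none. Snx29, a sorting nexin gene, had WT MYC at all 3 (98.4, 202 and 205) and KO MYC at 2. Ssh2, which encodes a cofilin phosphatase, had MYC at 0 of 3, and 1 of the 3 was open in both KO MycHet libraries. Genes with 3 regions thus differed in MYC from none to all, and these counts were not tested.

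Genes for chromatin writers and erasers had regions at 5 of 48, namely Arid1b, Tet2, Dnmt1, Kdm5a and Dnmt3a, which is 10.4% of the list and 23.8% of its 21 genes nearest to any distal KO H3K27ac peak, beside 3.74% and 15.8% of all such genes. All 6 regions were open in both KO MycHet libraries, beside 91.6% of all regions. Dnmt3a, the de novo DNA methyltransferase, had KO MycHet scores of 859 and 961 at a region 53.4 kb from its nearest end, where MYC was called in WT only (92.02). Kdm5a, an H3K4 demethylase, had MYC in KO only (61.6).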
